A study of Homo sapiens with 4 samples.

Results

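The 45 genes described here encode proteins that copy DNA or supply the building blocks for it. They were chosen by name from textbook roles in replication origin licensing, the MCM2-7 helicase, helicase activation, the sliding clamp and its loader, single-strand binding, DNA polymerases, lagging-strand maturation, deoxynucleotide synthesis and chromatin assembly. All 45 were found among the 43305 gene names that had a value on every array.

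The 4 arrays came from head and neck squamous cell carcinoma (HNSCC) cells, and each condition had 1 culture and 1 array. Both parental lines, HN4 and HN30, are established human lines of this carcinoma and were grown without drug. HN4/DDP and HN30/DDP are their cisplatin-resistant derivatives, selected with rising doses of cisplatin, which crosslinks DNA through its platinum. By the labels, the resistant cells were in medium with 20 μM cisplatin for 48 h, so that stable resistance and the presence of the drug cannot be told apart. No label says whether the resistant cells were clones, and the question of the comparison was which transcripts differ between resistant and parental cells.

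Before a cell divides, ORC, CDC6 and CDT1 load the MCM2-7 helicase at origins, and CDC45 and the GINS complex then turn it on. Polymerase alpha with primase starts each strand, polymerases epsilon and delta extend it with the clamp PCNA, and FEN1 and LIG1 join the lagging-strand pieces. Many of these genes are transcribed at the entry into S phase, the part of the cell cycle in which DNA is copied, through E2F transcription factors, and cells that stop dividing are known to lose their transcripts. Several of the enzymes are targets of cancer drugs: TYMS of fluorouracil and ribonucleotide reductase of hydroxyurea.

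Sequences before the gene starts are shown because the 45 genes fell together on the HN30/DDP array and E2F factors are known to act at such promoters. In the RefSeq table of GRCh38.p14, 38 of the 45 genes had a promoter window of 300 bases, reaching from 250 bases before the start to 50 after it. The 8 letters TTTCGCGC or TTTGGCGC, forms of the E2F site, occurred on either strand in 12 of the 38 genes (31.6%), against 1.4% of the 27305 genes in the table. Of these 12, 7 had a match wholly before the start, and they are printed here 5′ to 3′ along the gene's own strand, with the matched letters in capitals and overlapping matches joined. Letters in this form on the opposite strand read GCGCCAAA or GCGCGAAA.
MCM6, chr2:135876568-135876611, minus strand, from 152 to 141 bases before the start: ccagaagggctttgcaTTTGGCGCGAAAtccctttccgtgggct
MCM6, chr2:135876506-135876549, minus strand, from 90 to 79 bases before the start: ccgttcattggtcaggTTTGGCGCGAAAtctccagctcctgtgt
MCM7, chr7:100101398-100101422, minus strand, from 9 to 2 bases before the start: cacgtggggggcgacgTTTCGCGCc
POLA1, chrX:24693765-24693804, plus strand, from 137 to 130 bases before the start: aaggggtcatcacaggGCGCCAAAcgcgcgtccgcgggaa
POLA2, chr11:65261893-65261932, plus strand, from 53 to 46 bases before the start: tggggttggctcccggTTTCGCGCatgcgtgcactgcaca
POLE, chr12:132687343-132687376, minus strand, from 18 to 11 bases before the start: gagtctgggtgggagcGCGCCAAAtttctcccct
GMNN, chr6:24775317-24775356, plus strand, from 80 to 73 bases before the start: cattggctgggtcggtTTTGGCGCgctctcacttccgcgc
DUT, chr15:48332154-48332193, plus strand, from 27 to 20 bases before the start: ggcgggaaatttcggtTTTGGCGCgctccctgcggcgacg

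In MCM6 the same 12 letters stood at both places. In CDC6, GINS1, MCM2, MCM3 and POLE2 the match lay across or after the start and is not printed. The letters CCAAT, the box of the factor NF-Y, were found on either strand in 23 of the 38 genes (60.5%), against 39.7% of all genes in the table. In HN30 the median log2 difference was -1.88 for the 23 genes with CCAAT and -1.93 for the matched genes without it, and in HN4 it was -0.44 and -0.43. RRM2, which fell most on the HN30/DDP array, had 3 CCAAT boxes in 1 of its 2 windows. They are in capitals in this stretch from 133 to 52 bases before that start.
RRM2, chr2:10122606-10122687, plus strand: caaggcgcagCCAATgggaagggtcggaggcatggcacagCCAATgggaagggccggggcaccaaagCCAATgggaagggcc

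The letters TTTGAA or TTCGAA, forms of the CHR element of late cell-cycle genes, were in 3 of the 38 genes (7.89%), against 19.5% of all genes. A match of letters is a description of a window, not of a bound site. The members were chosen by role, and their windows were not matched to those of all genes in base composition. In HN30 the median log2 difference was -1.94 for the 12 genes with the E2F letters and -1.82 for the matched genes without them, and in HN4 it was -0.51 and -0.38. Whether the medians with and without the letters differ was not tested.

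Values are log2 processed signals minus the 75th percentile of the same array, so that 0 stands for that percentile, and a difference is the resistant minus the parental array. All 45 genes were well above background on all 4 arrays. The scanner SD, which follows from the software's own error per spot, was 0.204 to 0.243 for the difference of a member and leaves out the variation between cultures. With 1 array per condition no difference has a replicate check and none was tested within a line, and a gene is counted as lower or higher when the difference reaches 1, which is a 2-fold change.

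The members fell across the whole set in HN30 and little in HN4. Their median signal was 4.15 on the HN30 array and 2.42 on the HN30/DDP array, against 3.69 on the HN4 array and 3.44 on the HN4/DDP array. From HN30 to HN30/DDP the median difference was -1.88, or 3.69-fold lower, and the range ran from -3.74 for RRM2 to -0.54 for RFC1. From HN4 to HN4/DDP the median difference was -0.43, or 1.35-fold lower, and the range ran from -1.49 for MCM4 to 0.62 for GINS4. In these bulk samples fewer cells in S phase and less RNA per cell cannot be told apart.

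**Figure D1:**
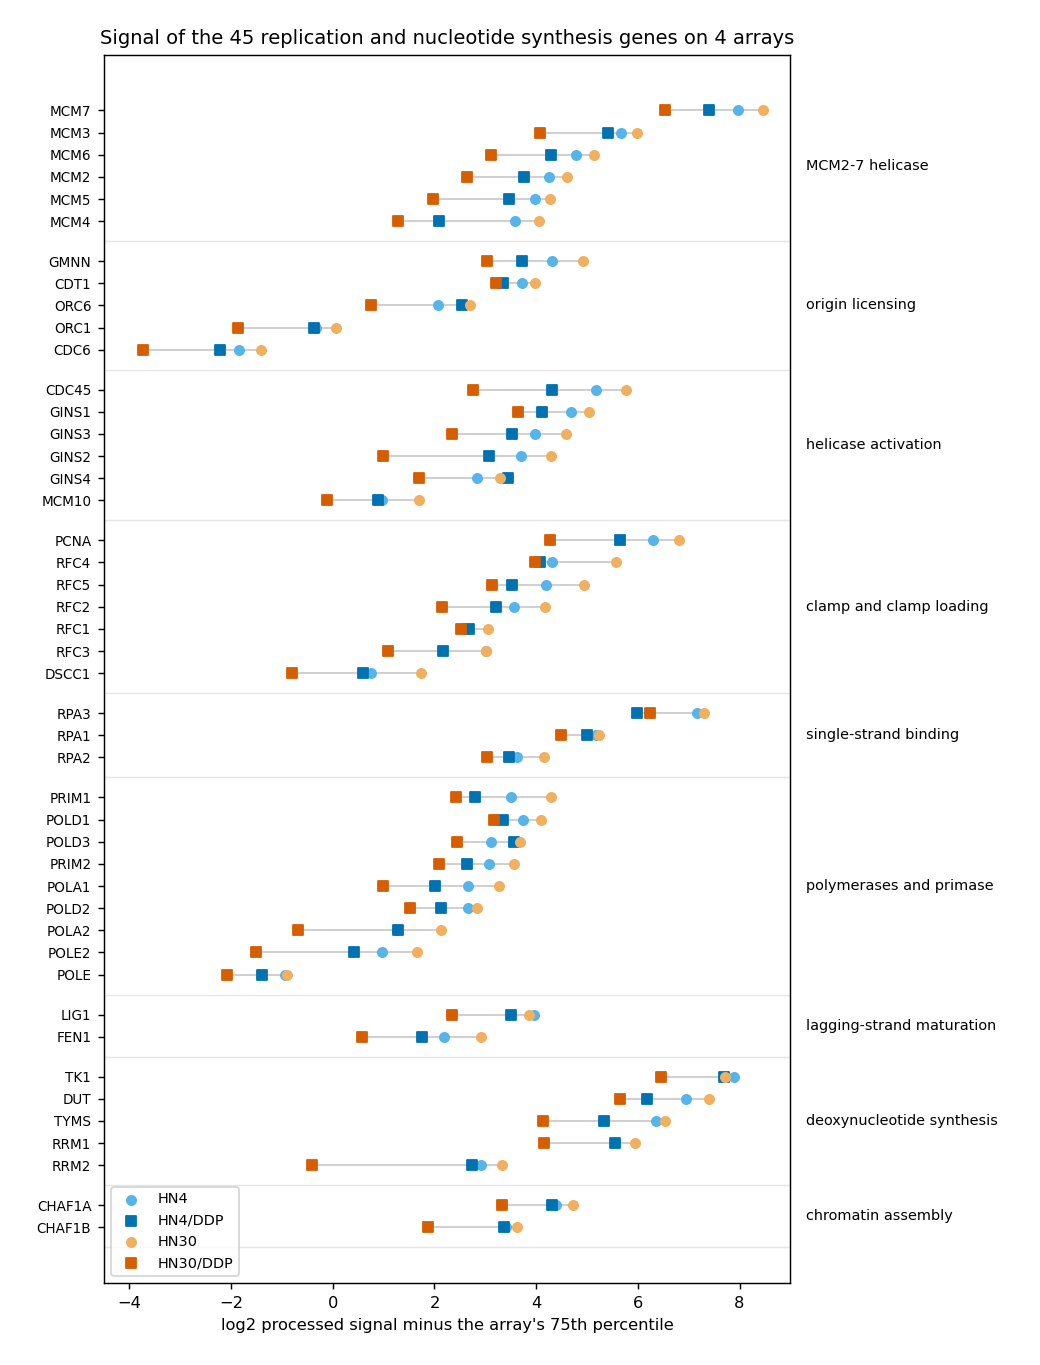
Signal of each of the 45 genes on the 4 arrays, as log2 processed signal minus the array's 75th percentile, with circles for parental and squares for resistant cells and a grey line joining the lowest and highest value of a gene. Genes are grouped by role, levels of different genes come from different probes and are not comparable, and the HN30/DDP square is the leftmost point for 44 of the 45 genes.

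In HN30/DDP, 41 of the 45 genes were lower by 1 or more, against 13.3% of all genes tested in that pair and 22.9% of genes of like brightness. Of the 41, 16 were lower by 2 or more, against 2.75% of all genes tested and 3.77% of genes of like brightness. No member was higher by 1 or more in HN30/DDP, where 19.8% of all genes were. The difference was below 0 for all 45 members, against 67.2% of the genes of like brightness. The 4 members that did not reach -1 were RFC1, RPA1, CDT1 and POLD1, and each of these was below 0 by more than its scanner SD.

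In HN4/DDP, 3 of the 45 genes were lower by 1 or more, namely MCM4, RPA3 and TYMS, against 8.65% of all genes tested and 6.6% of genes of like brightness, so the members' share was near the background. None was higher by 1 or more, where 9.31% of all genes were. The difference was below 0 for 40 of the 45 members, against 57.1% of the genes of like brightness. The fall was larger than the scanner SD for 30 members, within it for 12, and 3 members rose by more than it. The lower quartile of the difference was -0.59 for the members and -0.40 for the genes of like brightness, also beyond that SD. The share of the latter genes beyond it was not counted. At a size of 0.5 in place of 1, 17 of the 45 members were lower in HN4/DDP, against 22.6% of all genes and 20.0% of genes of like brightness, and the same 17 were lower in both lines, against 8.09% and 11.1%. At a size of 2 no member was lower in HN4/DDP, against 2.2% of all genes and 1.16% of genes of like brightness, and none in both lines, against 0.136% and 0.049%. Lower in both lines were the same 3 genes, MCM4, RPA3 and TYMS, against 1.99% of all genes tested in both pairs and 2.54% of genes of like brightness. With quantile normalization, with the authors' deposited values or with the trend of brightness taken off, MCM4 was the 1 gene left. No member was higher in both, where 4.49% of all genes were.

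**Figure D2:**
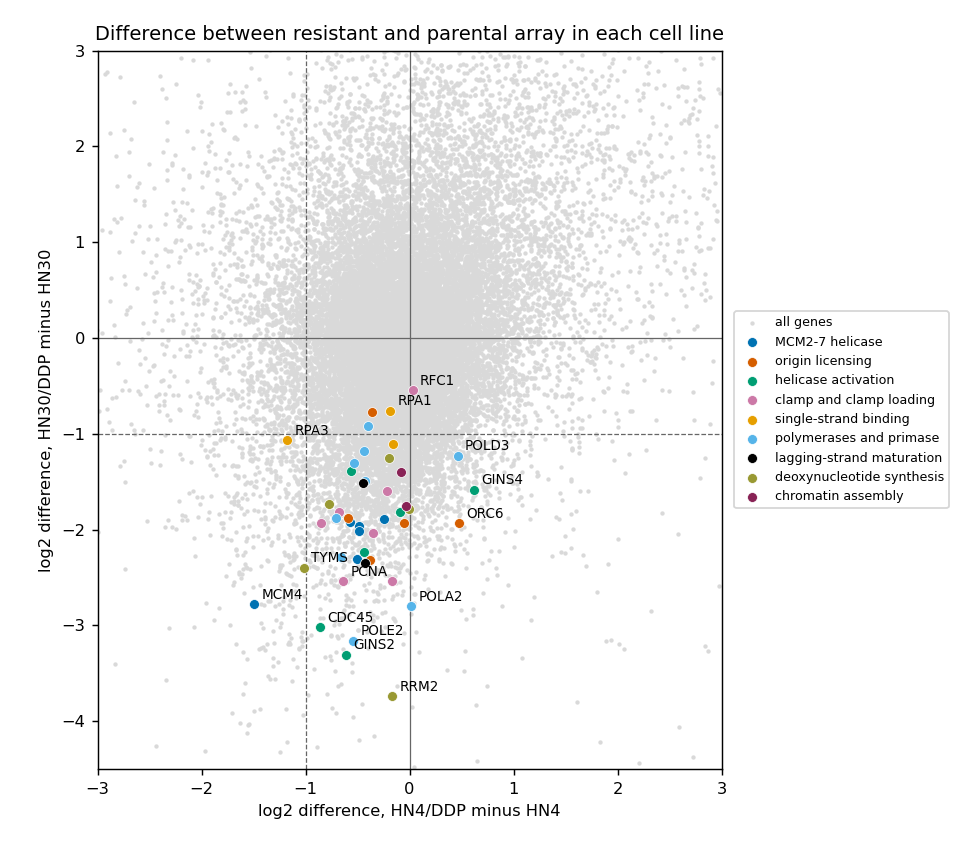
Log2 difference between the resistant and the parental array in HN4 (horizontal axis) and HN30 (vertical axis), with the 45 genes coloured by role and all genes tested in both pairs in grey; genes beyond the axes are not drawn, and dashed lines mark -1. All 45 genes lie below 0 on the HN30 axis, while on the HN4 axis they run from -1.49 to 0.62.

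Bright genes as a whole were lower on the HN30/DDP array, and the members are bright. The comparison therefore used 8164 genes of like brightness, whose mean over the 4 arrays lay between 0.68 and 5.69, the members' own 10th and 90th percentiles. Their median difference was -0.39 in HN30 and -0.08 in HN4, while over all genes tested the medians were 0.06 and -0.08. The 10th percentile of the like genes was -1.50 in HN30, and 32 of the 45 members lay at or below it. In HN4 that percentile was -0.81, and 5 members lay at or below it. With the median of the 1000 genes nearest in brightness taken off each member, the median of the members was -1.44 in HN30 with all 45 below 0, and -0.35 in HN4 with 37 below 0. The fall in HN30 was thus smaller relative to genes of like brightness than on the scale of the array, and for RFC1 (-0.16) and RPA1 (-0.20) it was within the scanner SD.

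**Figure D3:**
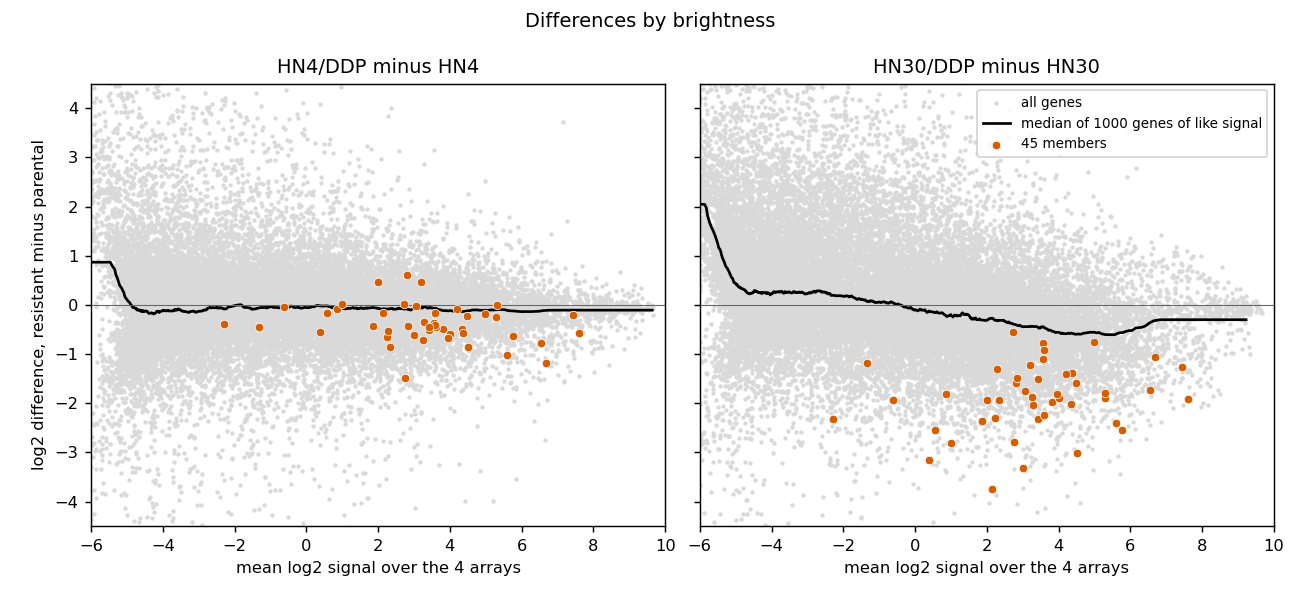
Log2 difference between resistant and parental array against the mean log2 signal over the 4 arrays, in HN4 (left) and HN30 (right), with the 45 genes in orange, all genes tested in grey and the running median of 1000 genes of like signal as a black line. In HN30 all 45 genes lie below the line, which is itself below 0 for bright genes, and in HN4 37 of them do.

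The 2 parental lines did not start from the same level. HN30 was above HN4 for 42 of the 45 genes, with a median of 0.44, against 0.11 for the genes of like brightness. Among the resistant lines the order turned, and HN30/DDP was below HN4/DDP for 44 of the 45 genes, with a median of -1.12, against -0.22 for the like genes. The order HN30, HN4, HN4/DDP, HN30/DDP from highest to lowest held for 36 of the 45 genes. The fall was larger in HN30 than in HN4 for 44 genes, with a median difference between the lines of -1.48, against -0.32 for the like genes, and RPA3 was the exception. The medians of the like genes had the same signs, and how many of those genes had the same orders was not counted.

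The MCM2-7 helicase is the ring of 6 subunits that unwinds DNA at the fork. All 6 genes were lower by 1 or more in HN30/DDP, with a median of -1.99, and 1 of them was in HN4/DDP, where the median was -0.50. MCM4 had a log2 signal of 3.58 in HN4 against 2.08 in HN4/DDP, and 4.06 in HN30 against 1.28 in HN30/DDP. It was 2.82-fold lower in HN4/DDP and 6.87-fold lower in HN30/DDP, the largest fall of the 45 genes in HN4 (-1.49), and its probe lies on chromosome 8 from 48888334 to 48888393 of hg19. MCM5 had 3.98 in HN4 against 3.47 in HN4/DDP, and 4.27 in HN30 against 1.96 in HN30/DDP, differences of -0.50 and -2.31. MCM3 had 5.66, 5.41, 5.98 and 4.08 in the same order of arrays, differences of -0.25 and -1.89, the smallest fall of the ring in each line. The other members, MCM2, MCM6 and MCM7, differed by -0.49, -0.48 and -0.57 in HN4 and by -1.97, -2.01 and -1.92 in HN30. MCM4 was thus the lowest of the ring in each line, and in HN4 it stood apart from the other genes of the ring, which lay between -0.57 and -0.25.

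Origin licensing genes place the ring on DNA and keep it from being placed again. ORC1 and ORC6 are subunits of the origin recognition complex, CDC6 and CDT1 load the ring, and GMNN (geminin) binds and blocks CDT1. Of the 5 genes, 4 were lower by 1 or more in HN30/DDP and none in HN4/DDP, with medians of -1.93 and -0.36. CDC6 had a log2 signal of -1.84 in HN4 against -2.23 in HN4/DDP, and -1.41 in HN30 against -3.73 in HN30/DDP, differences of -0.38 and -2.32. GMNN had 4.31, 3.72, 4.92 and 3.04, differences of -0.59 and -1.88. CDT1 had 3.71, 3.35, 3.98 and 3.21, differences of -0.36 and -0.77. CDT1 thus fell less than its inhibitor GMNN in HN30, while ORC1 differed by -0.05 in HN4 and -1.93 in HN30. ORC6 went opposite ways: its signal was 2.06 in HN4 against 2.53 in HN4/DDP, and 2.69 in HN30 against 0.76 in HN30/DDP, so it was higher by 0.47 in HN4 and different by -1.93 in HN30, each beyond its scanner SD.

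CDC45, the 4 GINS subunits and MCM10 activate the loaded helicase. All 6 were lower by 1 or more in HN30/DDP, with a median of -2.03, and none was in HN4/DDP, where the median was -0.50. CDC45 had a log2 signal of 5.17 in HN4 against 4.31 in HN4/DDP, and 5.77 in HN30 against 2.75 in HN30/DDP, and was 1.82-fold and 8.10-fold lower in the resistant lines. GINS2 had 3.69, 3.08, 4.29 and 0.98, and was 1.53-fold and 9.91-fold lower. GINS4 had 2.83, 3.44, 3.28 and 1.70, a rise of 0.62 in HN4 and a difference of -1.58 in HN30. Subunits of the same GINS complex therefore moved apart in HN4, where GINS1, GINS2 and GINS3 differed by -0.57, -0.61 and -0.44. MCM10 differed by -0.09 in HN4 and -1.82 in HN30, and GINS1 and GINS3 by -1.39 and -2.24 in HN30.

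PCNA is the ring that holds polymerases on DNA, RFC1 to RFC5 form the loader that opens it, and DSCC1 belongs to an alternative loader. Of the 7 genes, 6 were lower by 1 or more in HN30/DDP and none in HN4/DDP, with medians of -1.93 and -0.35. PCNA had a log2 signal of 6.29 in HN4 against 5.65 in HN4/DDP, and 6.81 in HN30 against 4.27 in HN30/DDP, and was 1.56-fold and 5.81-fold lower. RFC3 had 3.02, 2.17, 3.02 and 1.09, differences of -0.85 and -1.93. RFC1 had 2.65, 2.68, 3.06 and 2.52, differences of 0.03 and -0.54. RFC1, the large subunit found only in the main loader, had the smallest fall of the 45 genes in HN30, and its HN4 arrays differed by less than the scanner SD. RFC2, RFC4 and RFC5 differed by -0.35, -0.22 and -0.68 in HN4 and by -2.04, -1.60 and -1.81 in HN30, and DSCC1 by -0.16 and -2.53.

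The RPA complex coats single-stranded DNA, in replication and also in repair. Its 3 genes had the smallest median fall of the 9 role groups in HN30, -1.07, with -0.19 in HN4. RPA1 had a log2 signal of 5.18 in HN4 against 4.99 in HN4/DDP, and 5.24 in HN30 against 4.49 in HN30/DDP, differences of -0.19 and -0.76. RPA2 had 3.63, 3.47, 4.15 and 3.04, differences of -0.16 and -1.11. RPA3 had 7.16, 5.98, 7.30 and 6.24, differences of -1.18 and -1.07. RPA3, the smallest subunit, was the 1 member with its lowest value on the HN4/DDP array and the 1 member that fell at least as far in HN4 as in HN30, by a margin of 0.11 that is below the scanner SD.

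Polymerase alpha (POLA1, POLA2) and primase (PRIM1, PRIM2) lay down primers, polymerase delta (POLD1, POLD2, POLD3) copies mainly the lagging strand, and polymerase epsilon (POLE, POLE2) mainly the leading strand. Of the 9 genes, 8 were lower by 1 or more in HN30/DDP and none in HN4/DDP, with medians of -1.49 and -0.44. POLE2 had a log2 signal of 0.97 in HN4 against 0.43 in HN4/DDP, and 1.66 in HN30 against -1.51 in HN30/DDP, and was 1.45-fold and 8.96-fold lower. POLA1 had 2.66, 2.01, 3.28 and 0.99, differences of -0.66 and -2.29. POLA2 had 1.27, 1.28, 2.12 and -0.68, differences of 0.01 and -2.80. Both subunits of polymerase alpha thus fell by more than 2 in HN30, while in HN4 POLA1 alone fell beyond its scanner SD. POLD3 had 3.11, 3.57, 3.68 and 2.45, a rise of 0.47 in HN4 and a difference of -1.23 in HN30, whereas POLD1 and POLD2 differed by -0.40 and -0.53 in HN4 and by -0.92 and -1.31 in HN30. PRIM1 differed by -0.71 and -1.88, PRIM2 by -0.43 and -1.49, and POLE by -0.44 and -1.18.

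FEN1 cuts the flaps between lagging-strand pieces and LIG1 seals them. FEN1 had a log2 signal of 2.18 in HN4 against 1.76 in HN4/DDP, and 2.92 in HN30 against 0.57 in HN30/DDP, and was 1.34-fold and 5.11-fold lower. LIG1 had 3.96, 3.51, 3.86 and 2.35, and was 1.37-fold and 2.86-fold lower. The pair differed alike in HN4, by -0.43 and -0.45, and by -2.35 and -1.51 in HN30.

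The deoxynucleotide genes supply the precursors: RRM1 and RRM2 are the large and small subunit of ribonucleotide reductase, TYMS makes thymidylate, TK1 salvages thymidine and DUT keeps uracil out of DNA. All 5 were lower by 1 or more in HN30/DDP, with a median of -1.78, and 1 was in HN4/DDP, where the median was -0.20. RRM2 had a log2 signal of 2.91 in HN4 against 2.74 in HN4/DDP, and 3.33 in HN30 against -0.41 in HN30/DDP. It was 13.3-fold lower in HN30/DDP, the largest fall of the 45 genes, and 1.12-fold lower in HN4/DDP, where the difference of -0.16 was within its scanner SD; its probe lies on chromosome 2 from 10270487 to 10270546 of hg19. TYMS had 6.36, 5.34, 6.54 and 4.14, and was 2.02-fold and 5.28-fold lower. TK1 had 7.89, 7.69, 7.71 and 6.45, and was 1.15-fold and 2.39-fold lower. The 2 subunits of the reductase differed in size in HN30, where RRM1 was lower by 3.44-fold against 13.3-fold for RRM2, and in HN4 neither moved beyond the scanner SD (RRM1 -0.01). DUT differed by -0.78 in HN4 and -1.74 in HN30.

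CHAF1A and CHAF1B, subunits of the factor that puts histones on new DNA, hardly differed in HN4. CHAF1A had a log2 signal of 4.40 in HN4 against 4.32 in HN4/DDP, and 4.72 in HN30 against 3.33 in HN30/DDP, differences of -0.08 and -1.40. CHAF1B had 3.40, 3.37, 3.63 and 1.87, differences of -0.03 and -1.76. Both HN4 differences were within the scanner SD, and both genes were lower by 1 or more in HN30.

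Beyond the 45 genes, 4 lists of related genes were measured in the same way. Of 34 other replication genes, 26 (76.5%) were lower by 1 or more in HN30/DDP, against 13.3% of all genes tested and 22.9% of genes of like brightness. None was in HN4/DDP, against 8.65% and 6.6% of those genes. The list's medians were -1.45 in HN30 and -0.29 in HN4. By the mean of both lines the lowest were CLSPN, the claspin of the replication checkpoint, with differences of -0.95 in HN4 and -3.10 in HN30, NASP, a histone chaperone, with -0.58 and -2.80, and POLE4, a small subunit of polymerase epsilon, with -0.88 and -2.03. At the other end stood POLD4, the small accessory subunit of polymerase delta. Its log2 signal was 4.49 in HN4 against 5.47 in HN4/DDP, and 3.82 in HN30 against 6.03 in HN30/DDP, so it was 1.98-fold and 4.64-fold higher. MCM9 differed by -0.30 and 0.11 and ORC4 by -0.02 and -0.37. POLD4 was the 1 gene of this list that was higher by 1 or more, in HN30 alone, and its difference of 0.99 in HN4 lay just below that size.

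Of 28 other genes of nucleotide synthesis, 17 (60.7%) were lower by 1 or more in HN30/DDP, against 13.3% of all genes tested and 22.9% of genes of like brightness. In HN4/DDP 2 were (7.14%), near the 8.65% and 6.6% of those genes. The list's medians were -1.07 in HN30 and -0.18 in HN4. DTYMK, which phosphorylates thymidylate, had a log2 signal of 6.52 in HN4 against 4.83 in HN4/DDP, and 6.72 in HN30 against 4.99 in HN30/DDP, differences of -1.68 and -1.73. DTYMK was lower by 1 or more in each line, as was TYMS, whose product DTYMK acts on. CTPS1, which makes CTP, differed by -0.32 and -2.91. RRM2B, the small reductase subunit that p53 is known to induce, went the other way from RRM2: its log2 signal was 0.05 in HN4 against 1.25 in HN4/DDP, and 0.30 in HN30 against 2.26 in HN30/DDP, so it was 2.29-fold and 3.87-fold higher. The mitochondrial kinases TK2 and DGUOK hardly differed, by 0.13 and 0.12 for TK2 and by 0.06 and -0.02 for DGUOK.

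Of 23 regulators of S-phase transcription, 13 (56.5%) were lower by 1 or more in HN30/DDP, against 13.3% of all genes tested and 22.9% of genes of like brightness. In HN4/DDP 1 was (4.35%), below the 8.65% and 6.6% of those genes. The list's medians were -1.27 in HN30 and -0.31 in HN4. E2F1, an activator of many of the 45 genes, had a log2 signal of 1.96 in HN4 against 1.25 in HN4/DDP, and 2.38 in HN30 against -0.58 in HN30/DDP, differences of -0.71 and -2.95. MYBL2, which acts with the MuvB complex, differed by -0.83 and -2.92, and CCNE2, a cyclin of S-phase entry, by -0.66 and -2.92. TFDP2, a partner of E2F factors, was higher by 0.83 and 0.93. RBL2, a repressor of the retinoblastoma family found in resting cells, differed by -0.19 and 0.68, and LIN37, a MuvB subunit, by 0.48 and 0.02.

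Of 12 genes of translesion synthesis, which copies past damage such as platinum adducts, 11 were well above background on an array of each pair. Their medians were 0.08 in HN4 and -0.04 in HN30, where 2 of the 11 were lower by 1 or more, near the 13.3% of all genes tested and the 22.9% of genes of like brightness. RAD18, the ligase that marks PCNA for this pathway, differed by 0.21 and -1.69, and POLQ by -0.21 and -1.50. POLH, the polymerase that passes crosslinked bases, differed by 0.20 and 0.89, POLI by -0.17 and 0.85, POLK by 0.32 and 0.51, and REV3L by -0.19 and -0.75. Over all genes tested the medians were -0.08 and 0.06, and the difference of this list from them was not tested.

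**Figure D4:**
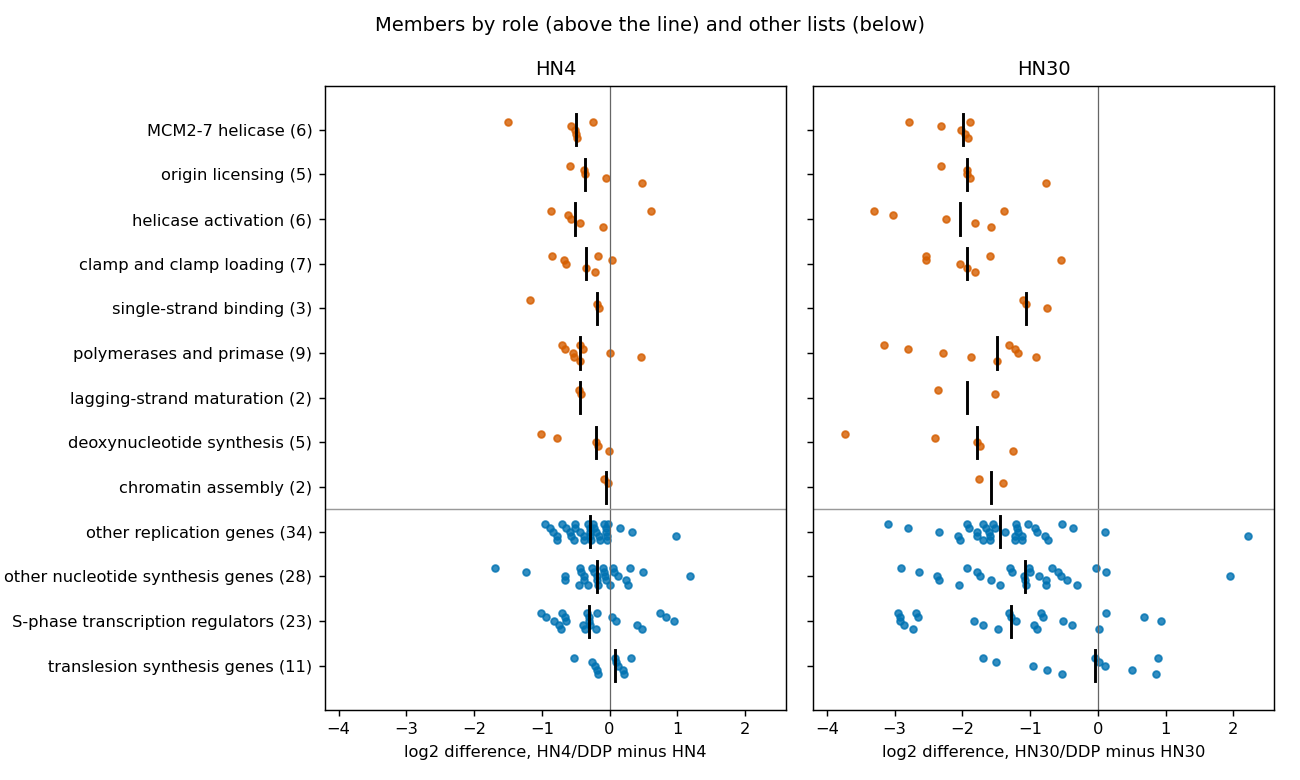
Log2 difference between resistant and parental array for each gene in HN4 (left) and HN30 (right), with the 45 genes by role in orange and the other lists in blue, the number of genes in parentheses and a black bar at each median. In HN30 every role median lies between -2.03 and -1.07, while the translesion synthesis genes have a median of -0.04.

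Where a gene had several probes, the one with the highest mean was used. Of the 45 genes, 35 had 1 probe and 10 had several. Of the 12 further probes of those 10 genes, 11 were also below 0 in HN30 and 9 in HN4. The second probe of RPA1 was the exception in HN30, with a difference of 0.62, and PCNA's second probe differed by -0.63 and -2.69 against -0.64 and -2.54 for the first. For PRIM2 all 4 probes were below 0 in HN30, the smallest fall being -0.64, while in HN4 they differed in sign, and 2 of them were above 0 at 0.03 and 0.60. The further probe of CHAF1A was the other exception in HN4, with 0.07. In size, the probes of a gene lay within 0.2 of each other for 5 of the 10 genes in HN30 and for 8 in HN4. The second probe of POLE differed by -0.55 in HN30 against -1.18 for the first, so by that probe POLE did not reach -1.

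The only contrast with replicates took the cell lines as replicates and set the resistant against the parental arrays, with the line as a block. In this limma fit over 29521 genes no gene passed an adjusted p of 0.05 (0.0% of all genes), with 2537 (8.59%) at an unadjusted p under 0.05. Of the 45 members none was called, and 10 had an unadjusted p under 0.05: MCM4, MCM7, CDC45, PCNA, RFC3, RFC5, RPA3, PRIM1, TYMS and DUT. That count was 20 without the line as a block (3261 of 29521 genes), 4 without a trend in eBayes (2186 of 29521), 6 with dim genes kept (2921 of 43305) and 8 with quantile normalization (2484 of 29520). The members' adjusted p in limma lay between 0.471 and 0.892. The fit had 1 residual degree of freedom per gene, and a fall of unequal size in the lines counts there as spread.

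The arrays had 55.3% to 63.6% of spots well above background, the highest share on HN30/DDP, no saturated spot, and 75th percentiles of 444 to 496 intensity units. RNA quality was not examined. The running median of the HN30 difference went from 2.05 for the dimmest genes to -0.60 at a mean signal near 5.3. In HN4 it went from 0.87 to -0.10, so the scale of the HN30/DDP array differed more from that of its parental array. The labelled cell type was checked on 10 squamous epithelial markers, of which 9 were well above background on all 4 arrays, the exception being KRT6A, which was not on HN30/DDP. Their summed signal, in units of the 75th percentile, was 404 in HN4 against 366 in HN4/DDP, and 358 in HN30 against 258 in HN30/DDP. Single squamous markers moved both ways: in HN4 the difference was -4.05 for KRT5 and 2.33, 3.29 and 3.32 for KRT14, KRT17 and KRT6A, and CDH1 differed by 0.58 in HN4 and 1.34 in HN30. In HN30 the difference was -1.93 for KRT5, 0.22 for KRT14 and 0.19 for KRT17, and KRT6A had 2.57 in HN30 and was not well above background in HN30/DDP. Of 6 fibroblast markers 4 were well above background on no array, and the summed signal was 0.39 in HN4 against 1.03 in HN4/DDP, and 0.22 in HN30 against 0.77 in HN30/DDP, with COL1A1 3.31-fold and 5.38-fold higher in the resistant lines. Of 3 leukocyte markers found, the defining PTPRC was low but well above background on all arrays, between -3.10 and -2.84, and CD3E was well above background only on HN30/DDP at -4.16, while CD14 rose from 1.82 in HN30 to 5.30 in HN30/DDP. The summed leukocyte signal, nearly all from CD14, was 6.35, 9.28, 3.65 and 39.6 in the order HN4, HN4/DDP, HN30, HN30/DDP. The leukocyte and fibroblast sums were higher and the squamous sum lower on the resistant array of each line, where the members fell, and their part in that fall was not tested. Of 4 endothelial markers 1 was well above background on all arrays, and the summed signal was 0.22 to 0.32.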

How the data were processed

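Per the labels, total RNA of each sample was labelled with Cy3 and hybridised to a one-colour Agilent human expression array. The authors deposited scanner files with a processed signal intensity for each spot, which Agilent Feature Extraction 10.7.1.1 had background-subtracted and which was not scaled between arrays. A second deposited table holds log2 values with identical quantiles on every array. Of its 58341 entries 58183 were matched to probes, and it served as an alternative. Its making is not described in the sources. Probe positions are those of hg19 in the scanner files, and exons and UTRs were not analysed here.

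From the intensities, log2 signals minus each array's 75th percentile over the 60901 non-control spots were computed. Outlier spots were left out and spots of a probe were averaged. A gene took its probe with the highest mean of the 4 arrays. A gene was tested in a pair when it was well above background on at least 1 of its 2 arrays. The arrays shared 1 slide and 1 scan, and their number limits the precision. The resistant samples are called DDP here and CR in the labels, and the paper's results call the experiment RNA sequencing.

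The limma fit (version 3.58.1, R 4.3.3, eBayes with a trend, Benjamini-Hochberg adjustment) was tested on simulated data. Other steps used Python 3.11.15, numpy 2.4.6, pandas 2.3.3 and matplotlib 3.10.9. Names and promoters came from RefSeq tables of GRCh38.p14, where the accession of 44 of the 45 members carried the same symbol. LYZ and CD68 were not found under those names.

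The members, lists and named genes were chosen with earlier results of these data known. In each role group the values on all arrays are given for the 2 members with the lowest and the 1 with the highest mean difference, for every member with a rise of 0.5 or more, and for every member with opposite signs in the lines. For each other list the 3 lowest and 3 highest genes are named. A gene that this rule names is not reported here. Alternatives covered the scaling, background correction, deposited values, choice of probe, pseudocount, treatment of dim signals, brightness trend, thresholds and settings of limma.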

Additional observations from a re-analysis of the deposited data

Results flagged for a closer look

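Of the 45 members, 3 went opposite ways in the cell lines, each beyond its scanner SD. For ORC6 the HN30 difference minus the HN4 difference was -2.41, for GINS4 it was -2.20, and for POLD3 it was -1.69 (log2). Each rose from HN4 to HN4/DDP and fell from HN30 to HN30/DDP. Having 1 array per condition, these differences were not tested.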

How the results depend on the processing

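No difference beyond its scanner SD changed sign among the 808 member differences computed under the alternatives, where 636 stayed within the scanner SD of the value reported and 172 moved beyond it. All members stayed below 0 in HN30 under each scaling, background, probe and dim-signal alternative, while in HN4 the sign of CHAF1A, CHAF1B and RRM1 changed under some of them, each within its scanner SD. The median in HN4 ran from -0.44 to -0.35. The median in HN30 was -2.30 with the median of each array in place of the 75th percentile, which moved the median of all genes there from 0.06 to -0.36, -1.50 with quantile normalization, -1.49 with the authors' deposited values and -1.44 with the brightness trend taken off. Lower by 1 or more in both lines was 1 gene in place of 3 with quantile normalization, with the deposited values and with the trend taken off. At a threshold of 2, 0 members were lower in HN4 (2.2% of all genes), 16 in HN30 (2.75%) and 0 in both (0.136%), and at 0.5, 17 were lower in HN4 (22.6%) and 17 in both (8.09%). In each alternative of the limma fit no gene passed an adjusted p of 0.05. With probes of NM accessions only, POLA2 had no value and 44 members were left. Beyond the limma fit, which takes each cell line as a pair, no paired analysis was possible because each condition has 1 sample, and no replicate could be left out. The single arrays limit every difference, since the scanner SD holds no variation between cultures.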
